A study of Mus musculus with 18 samples.

Results

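The methylation of 7 genes that keep blood stem cells self-renewing was examined in mature blood cells. They were *Meis1*, *Mecom*, *Hlf*, *Prdm16*, *Msi2*, *Pbx3* and *Hmga2*, 7 of the 21938 protein-coding genes of the mouse annotation. A region belonged to a gene when it overlapped the gene body or the 5 kb to either side. In CD11b+ cells 755 of 411770 listed regions belonged to these genes, and 377 of 172177 regions with more than 10 CpGs. In CD4+ cells they numbered 963 of 553467 listed regions, and 471 of 247222 regions with more than 10 CpGs. The tables' CpG number counts cytosines of either strand. Unless stated otherwise, values below are for regions with more than 10 CpGs.

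Whole-genome bisulfite sequencing (WGBS), which reads the methylated share of each cytosine, had been run on myeloid cells (CD11b+) and helper T cells (CD4+) enriched from the spleen on magnetic columns. The mutant mice, *Dnmt3a* R878H/+ (written Dnmt3aR878/+ in the sample labels), carried 1 mutant allele of the methyltransferase *Dnmt3a*, switched on in the blood lineage by Vav1-iCre, a constitutive Cre driven by a promoter of hematopoietic cells. The WT mice were called *Dnmt3a*+/+. For its transplant controls the paper used that name both for Cre-positive *Dnmt3a*+/+ mice and for Cre-negative mice whose R878H allele was not switched on. Which of these served as WT in this assay, and so whether they carried Cre, is not given in the sources used here. Each cell type came from 4 WT and 4 mutant mice, with a pair of sample entries each for replicates 3 and 4 of the mutant CD11b+ cells. The tables hold 1 mean per genotype and cell type and neither a value for a single mouse nor a read depth. A mean therefore has no error here, no difference could be tested across mice, and the coverage behind each value is unknown. The group printed first was read as WT, so all directions given here depend on it. The sample titles carry an S number that the labels do not explain. It lay above 200 in 4 of 4 mutant entries and 1 of 4 WT entries of CD4+ cells, and in 2 of 6 mutant and 0 of 4 WT entries of CD11b+ cells. What that number stands for and the genotype cannot be told apart in CD4+ cells.

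DNMT3A adds methyl groups to cytosines that lie before a guanine (CpGs), and the R878H protein interferes with the normal one. In blood stem cells many developmental regulators sit inside broad unmethylated stretches, known as canyons, whose borders depend on DNMT3A. Most of the 7 genes are active mainly in stem and progenitor cells. *Meis1* and *Pbx3* encode TALE homeodomain partners of HOX proteins. *Mecom*, which encodes EVI1 and MDS1-EVI1, and its paralog *Prdm16* encode zinc finger factors of the PR domain family. *Hlf* encodes a PAR bZIP factor, *Msi2* an RNA-binding protein, and *Hmga2* an AT-hook chromatin protein typical of fetal stem cells.

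Sequences from inside regions with deep losses are shown so that the sites can be recognised. The losses are means over whole regions, and the printed bases have no value of their own. For 5 of the genes, the pair of overlapping CD11b+ and CD4+ regions with the largest mean loss was taken, and the middle 200 bases of the stretch they share were read from mm10, or the whole stretch where it was shorter. All are given on the plus strand, with every CpG in capitals. All 7 genes lie on the minus strand, and all 5 stretches are intronic. The only *Pbx3* pair shared too short a stretch and is not shown.
Meis1, chr11:19009566-19009765: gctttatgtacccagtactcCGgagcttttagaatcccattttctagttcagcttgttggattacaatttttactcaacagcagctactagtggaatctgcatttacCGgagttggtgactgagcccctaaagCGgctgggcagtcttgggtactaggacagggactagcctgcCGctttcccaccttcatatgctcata
Mecom, chr3:30219603-30219802: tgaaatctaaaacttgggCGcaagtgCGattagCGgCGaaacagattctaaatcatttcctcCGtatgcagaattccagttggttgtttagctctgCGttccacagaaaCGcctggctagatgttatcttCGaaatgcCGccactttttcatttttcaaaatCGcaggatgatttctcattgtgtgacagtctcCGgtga
Prdm16, chr4:154544065-154544156: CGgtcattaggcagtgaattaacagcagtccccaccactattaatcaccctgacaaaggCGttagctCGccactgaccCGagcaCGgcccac
Msi2, chr11:88583477-88583676: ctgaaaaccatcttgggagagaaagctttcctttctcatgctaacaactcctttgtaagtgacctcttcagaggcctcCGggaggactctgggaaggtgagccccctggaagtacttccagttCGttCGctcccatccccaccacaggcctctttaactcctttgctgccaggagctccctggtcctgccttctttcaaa
Hmga2, chr10:120391467-120391666: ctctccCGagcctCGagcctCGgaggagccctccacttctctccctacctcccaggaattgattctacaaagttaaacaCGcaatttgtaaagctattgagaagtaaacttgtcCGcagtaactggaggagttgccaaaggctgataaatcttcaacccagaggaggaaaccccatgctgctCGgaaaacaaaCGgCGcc

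The windows differ in how many CpGs they hold, counted here as CG dinucleotides. The *Mecom* window, from intron 1, holds 11 CpGs in 200 bases and the *Hmga2* window, from intron 3, holds 8. The *Meis1* window (intron 6) holds 4 and the *Msi2* window (intron 6) 3. The *Prdm16* stretch of 92 bases in intron 1 holds 5. Introns are numbered along the longest transcript of each gene.

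Methylation was lower in mutant cells over nearly all of these regions, and the losses were larger than those of all listed regions. A loss here means that the mutant mean lay more than 20 percentage points below the WT mean, and a gain the reverse. Neither is a test. In CD11b+ cells 83 of 377 regions (22.0%) had a loss, against 7.74% of all listed regions with more than 10 CpGs. In CD4+ cells 104 of 471 (22.1%) had one, against 6.89% of all. Among listed regions within 5 kb of any protein-coding gene the shares were 8.86% and 8.01%. Each of the 7 genes had at least 1 loss in each cell type, where 32.8% of protein-coding genes with a region had any in CD11b+ cells and 36.4% in CD4+ cells. Longer genes hold more regions and so more chances of one. No region of the 7 genes had a gain, against 0.298% (CD11b+) and 0.00769% (CD4+) of all regions.

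With no threshold applied, the differences ran the same way. In CD11b+ cells 369 of 377 regions (97.9%) were lower in the mutant, close to the 95.7% of all listed regions. In CD4+ cells 464 of 471 (98.5%) were lower, beside 97.3% of all. The direction thus matched the rest of the table, and the size did not. The median difference in CD11b+ cells was a loss of 8.91 percentage points (quartiles 4.89 and 18.5), with 6.6 over all regions. In CD4+ cells the median loss was 9.62 points (quartiles 5.55 and 18.1), with 6.85 over all. Median WT methylation was 88.0% in CD11b+ cells and 90.2% in CD4+ cells, and median mutant methylation was 77.0% and 79.6%. The regions were listed by a program that searches for differences between the genotypes, so these medians describe listed regions and not whole genes.

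**Figure D1:**
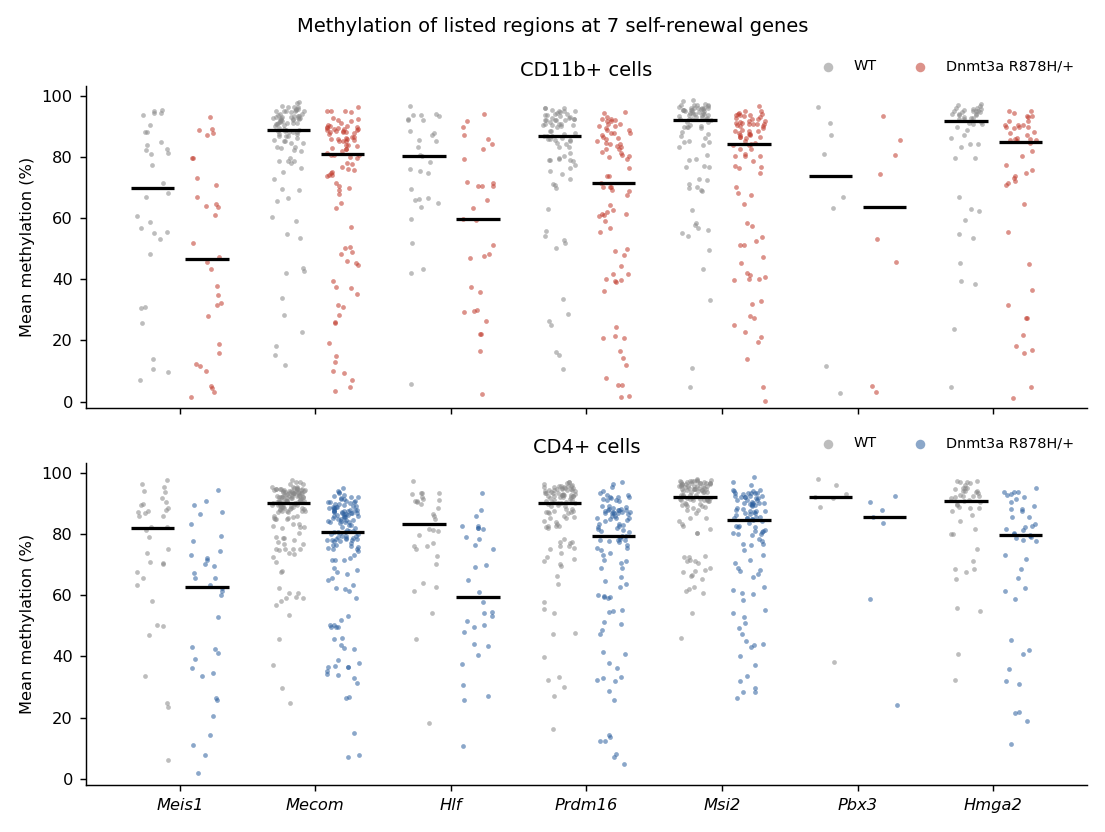
Mean methylation in percent (y axis) of every listed region with more than 10 CpGs at the 7 genes (x axis), for WT (grey) and Dnmt3a R878H/+ (coloured) in CD11b+ cells (top) and CD4+ cells (bottom). Each point is the authors' mean of 4 mice over 1 region, and black bars are medians over regions. The median bar is lower in the mutant in every gene and cell type, and the spread of mutant values reaches further down.

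The genes differed in how much of their listed methylation was lost. *Hlf* had the highest share of regions with a loss, 11 of 31 (35.5%) in CD11b+ cells and 13 of 32 (40.6%) in CD4+ cells. *Meis1* followed with 11 of 32 (34.4%) and 14 of 36 (38.9%). *Prdm16* had 20 of 79 (25.3%) and 22 of 105 (21.0%). *Msi2* had 20 of 85 (23.5%) and 16 of 104 (15.4%), and *Hmga2* had 7 of 48 (14.6%) and 12 of 45 (26.7%). *Mecom*, by far the longest gene, had 13 of 94 (13.8%) and 26 of 142 (18.3%). *Pbx3* had the fewest listed regions, with 1 loss in 8 in CD11b+ cells and 1 in 7 in CD4+ cells.

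Among protein-coding genes with at least 10 regions (3213 for CD11b+ and 4651 for CD4+ cells), few had a higher share than the leading members. A higher share than that of *Hlf* was seen in 2.09% of such genes in CD11b+ cells and in 0.817% in CD4+ cells. For *Meis1* it was 2.37% and 1.23%, and for *Prdm16* 7.47% and 9.46%. *Msi2* (9.34% and 19.2%), *Hmga2* (24.7% and 5.31%) and *Mecom* (26.6% and 13.8%) stood further down. By the plain number of losses, which grows with gene length, *Mecom* ranked 4 among all protein-coding genes in CD4+ cells and 20 in CD11b+ cells, and *Prdm16* ranked 7 and 6.

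**Figure D2:**
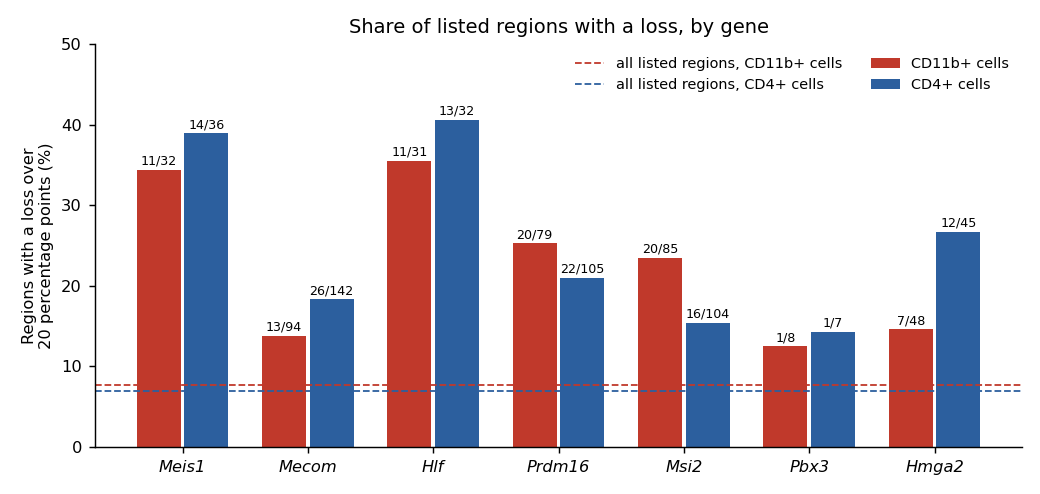
Share of listed regions with a loss over 20 percentage points (y axis, %) in each gene (x axis) in CD11b+ (red) and CD4+ cells (blue). Numbers above the bars are regions with a loss over regions with more than 10 CpGs, and dashed lines are the shares over all listed regions, 7.74% and 6.89%. All bars stand above the line of their cell type, the *Pbx3* bars on 1 region each.

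*Meis1* spans chr11:18879817-19018985. Weighted by CpGs, its regions went from 63.6% in WT to 45.3% in mutant CD11b+ cells and from 70.1% to 50.7% in CD4+ cells, and its median loss was 15.2 and 17.3 points. All 32 and all 36 regions were lower in the mutant. The largest loss lay in intron 6 in both cell types. At chr11:19009241-19010090, with 25 CpGs, CD11b+ cells went from 53.3% to 16.0%, and at chr11:19009157-19010090, with 30 CpGs, CD4+ cells went from 75.2% to 36.2%. That stretch, whose centre is printed above, lay inside the longest row of consecutive listed regions with a loss in this gene. Such rows were looked for after the values had been seen. In CD11b+ cells 4 such regions in a row covered chr11:19004863-19013945 (9083 bases), and in CD4+ cells 5 in a row covered chr11:19004863-19013824.

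Between that row and the *Meis1* starts, CD11b+ cells held 3 listed regions that were already nearly unmethylated in WT. They stood at 9.77%, 10.7% and 7.23% in WT and at 1.67%, 4.45% and 3.29% in the mutant. In CD4+ cells 1 region there stood at 6.04% in WT and 1.94% in the mutant. No region with more than 10 CpGs was listed within 1 kb of a *Meis1* start in either cell type. Upstream, the CD4+ region nearest a start (chr11:19021403-19021991) went from 47.1% to 20.6%. The smallest *Meis1* differences were in intron 8, 94.2% to 92.9% in CD11b+ cells and 97.6% to 94.2% in CD4+ cells.

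*Hlf* spans chr11:90336536-90390895, the shortest of the 7. It had the most of its CpGs in listed regions with more than 10 CpGs, 41.7% (CD11b+) and 34.0% (CD4+). Its CpG-weighted level went from 74.0% to 53.3% in CD11b+ cells and from 79.4% to 59.4% in CD4+ cells, with median losses of 16.8 and 16.5 points. All 31 and all 32 regions were lower in the mutant. Around its starts, within 10 kb, 5 of 8 CD11b+ regions and 6 of 8 CD4+ regions had a loss. At the inner of its starts the region at chr11:90387725-90388330 stood at 5.63% in WT and 2.60% in mutant CD11b+ cells, and the CD4+ region at chr11:90387374-90387730 stood at 18.1% and 10.8%. Upstream of the outer start, 431 bases off, CD11b+ cells went from 74.8% to 46.8% (chr11:90391326-90391926). In CD4+ cells 6 consecutive regions with a loss covered chr11:90378456-90387302, from 671 to 7950 bases off a start. The smallest differences were 93.7% to 91.6% in CD11b+ cells and 91.2% to 87.9% in CD4+ cells.

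*Mecom* spans chr3:29951296-30548008 and has 11 annotated starts of protein-coding transcripts, the only starts used here, which form 4 groups when starts under 20 kb apart are joined. Its CpG-weighted level went from 80.1% to 66.4% in CD11b+ cells and from 83.7% to 70.6% in CD4+ cells, and its median loss was 7.31 and 8.70 points. The largest of all 7 genes in CD11b+ cells was in *Mecom* intron 1 at chr3:30219248-30220154, 37 CpGs that went from 85.1% to 31.7%. CD4+ cells went from 82.0% to 37.8% over nearly the same bases. The window printed above with 11 CpGs lies inside this stretch, which lay 18008 bases from the nearest start.

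The 4 groups of *Mecom* starts were compared by the regions within 10 kb. Around the starts that give the shorter EVI1-type transcripts (29997663 to 30013505 on chromosome 3), CD4+ cells had a loss in 6 of 11 regions and CD11b+ cells in 2 of 9, with median losses of 21.3 and 7.0 points. The 6 CD4+ losses came one after another over chr3:29999587-30016342. Around the most upstream of these starts (30509514 to 30509822), which lie inside the annotated gene body, 3 of 6 regions in CD4+ cells and 2 of 7 in CD11b+ cells had a loss, and median WT methylation was 61.5% and 43.8%. The groups between them had 1 of 5 and 3 of 7 losses in CD4+ cells and 1 of 2 and 2 of 5 in CD11b+ cells. The region at the middle starts (chr3:30237707-30238168) stood at 88.2% in WT and 81.8% in mutant CD11b+ cells. At an EVI1-side start (chr3:30010721-30011730) CD4+ cells went from 37.3% to 14.8%. The most positive *Mecom* differences were 86.8% in WT against 89.6% in the mutant in CD11b+ cells (chr3:30475280-30475792) and 93.6% against 95.0% in CD4+ cells.

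*Prdm16* spans chr4:154316125-154636873. Its CpG-weighted level went from 78.6% to 62.4% in CD11b+ cells and from 81.6% to 67.2% in CD4+ cells, with median losses of 10.6 and 9.09 points. Losses lay on both sides of its start, in intron 1 up to 105804 bases from the start, and in smaller number farther into the gene. Upstream of the start, 4 consecutive regions had a loss in each cell type, over chr4:154638598-154641922 in CD11b+ cells (31.9 to 42.3 points) and over chr4:154638482-154641831 in CD4+ cells (20.1 to 41.8 points). The CD4+ region nearest the start (chr4:154638482-154638722) went from 54.1% to 12.3%, and the CD11b+ one (chr4:154638070-154638293) from 24.9% to 5.47%. No region was listed within 1 kb of the start. Inside the gene, CD11b+ regions at 16.2% and 10.8% in WT stood at 1.52% and 1.71% in the mutant. The largest losses were in intron 1, 83.1% to 36.1% in CD11b+ cells at chr4:154543894-154544156 and 85.6% to 40.6% in CD4+ cells at chr4:154544065-154544171. Regions that were not lower in the mutant numbered 3 in each cell type. In intron 11 (chr4:154334765-154334961) CD4+ cells were higher in the mutant, 63.6% against 68.9%, and in exon 17 CD11b+ cells stood at 92.3% and 92.5%. In the *Prdm16* window 4 regions, 1 in CD11b+ and 3 in CD4+ cells, also touched the gene B230104I21Rik, and none of them had a loss.

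*Msi2* spans chr11:88339382-88718513. Its CpG-weighted level went from 82.0% to 69.1% in CD11b+ cells and from 86.5% to 74.4% in CD4+ cells, with median losses of 7.30 and 7.87 points. Most of its losses lay deep in the gene, far from a start. The largest in CD11b+ cells was in intron 6 (chr11:88583087-88584282), from 58.5% to 22.9%, and the largest in CD4+ cells in the same intron (chr11:88553065-88553874), from 62.5% to 28.2%. In each cell type 3 consecutive regions with a loss lay around chr11:88553065-88560060, from 158041 to 164227 bases off the starts in CD4+ cells. Near the starts, the CD11b+ region in exon 4 (chr11:88716369-88716806) stood at 4.96% in WT and 0.173% in the mutant, and the CD4+ region at chr11:88719280-88719603 went from 67.4% to 49.1%. The most positive *Msi2* differences were 96.0% against 96.5% in CD11b+ cells and 94.4% against 97.0% in CD4+ cells.

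*Hmga2* spans chr10:120361275-120476469. Its CpG-weighted level went from 80.3% to 66.3% in CD11b+ cells and from 83.5% to 67.5% in CD4+ cells, with median losses of 7.31 and 10.0 points. All 48 and all 45 regions were lower in the mutant. None of the 3 and 4 regions within 10 kb of its start had a loss, and no region with more than 10 CpGs was listed within 1 kb of it. The CD11b+ region nearest the start stood at 4.67% in WT and 1.27% in the mutant, and the CD4+ one, upstream, went from 84.3% to 73.1%. The losses lay in the long intron 3. The largest in CD11b+ cells was at chr10:120391099-120392441 (36 CpGs), from 83.2% to 36.4%. In CD4+ cells the largest of all 7 genes lay at chr10:120428721-120429412 (39 CpGs), from 67.6% to 21.5%. In that part of intron 3, 4 CD4+ regions in a row had a loss. The smallest *Hmga2* differences were 95.1% to 94.8% and 95.0% to 93.6%.

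*Pbx3* spans chr2:34171457-34373142 and stood apart by how little of it was listed, 5.72% of its CpGs in CD11b+ cells and 3.21% in CD4+ cells. Its CpG-weighted level went from 60.9% to 53.2% in CD11b+ cells and from 86.1% to 75.8% in CD4+ cells, over 8 and 7 regions that lie at different places. The region at its inner starts (chr2:34370865-34371268) was unmethylated in both genotypes of CD11b+ cells, 3.0% in WT and 3.22% in the mutant. The 1 CD11b+ loss was just upstream (chr2:34373580-34374060), from 66.9% to 45.6%. The CD4+ region that touches it (chr2:34373364-34373580) went from 38.1% to 24.0%. The 1 CD4+ loss was in exon 5 (chr2:34204736-34205066), from 88.7% to 58.8%, and the smallest CD4+ difference, in exon 4, was 93.0% to 87.7%.

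**Figure D3:**
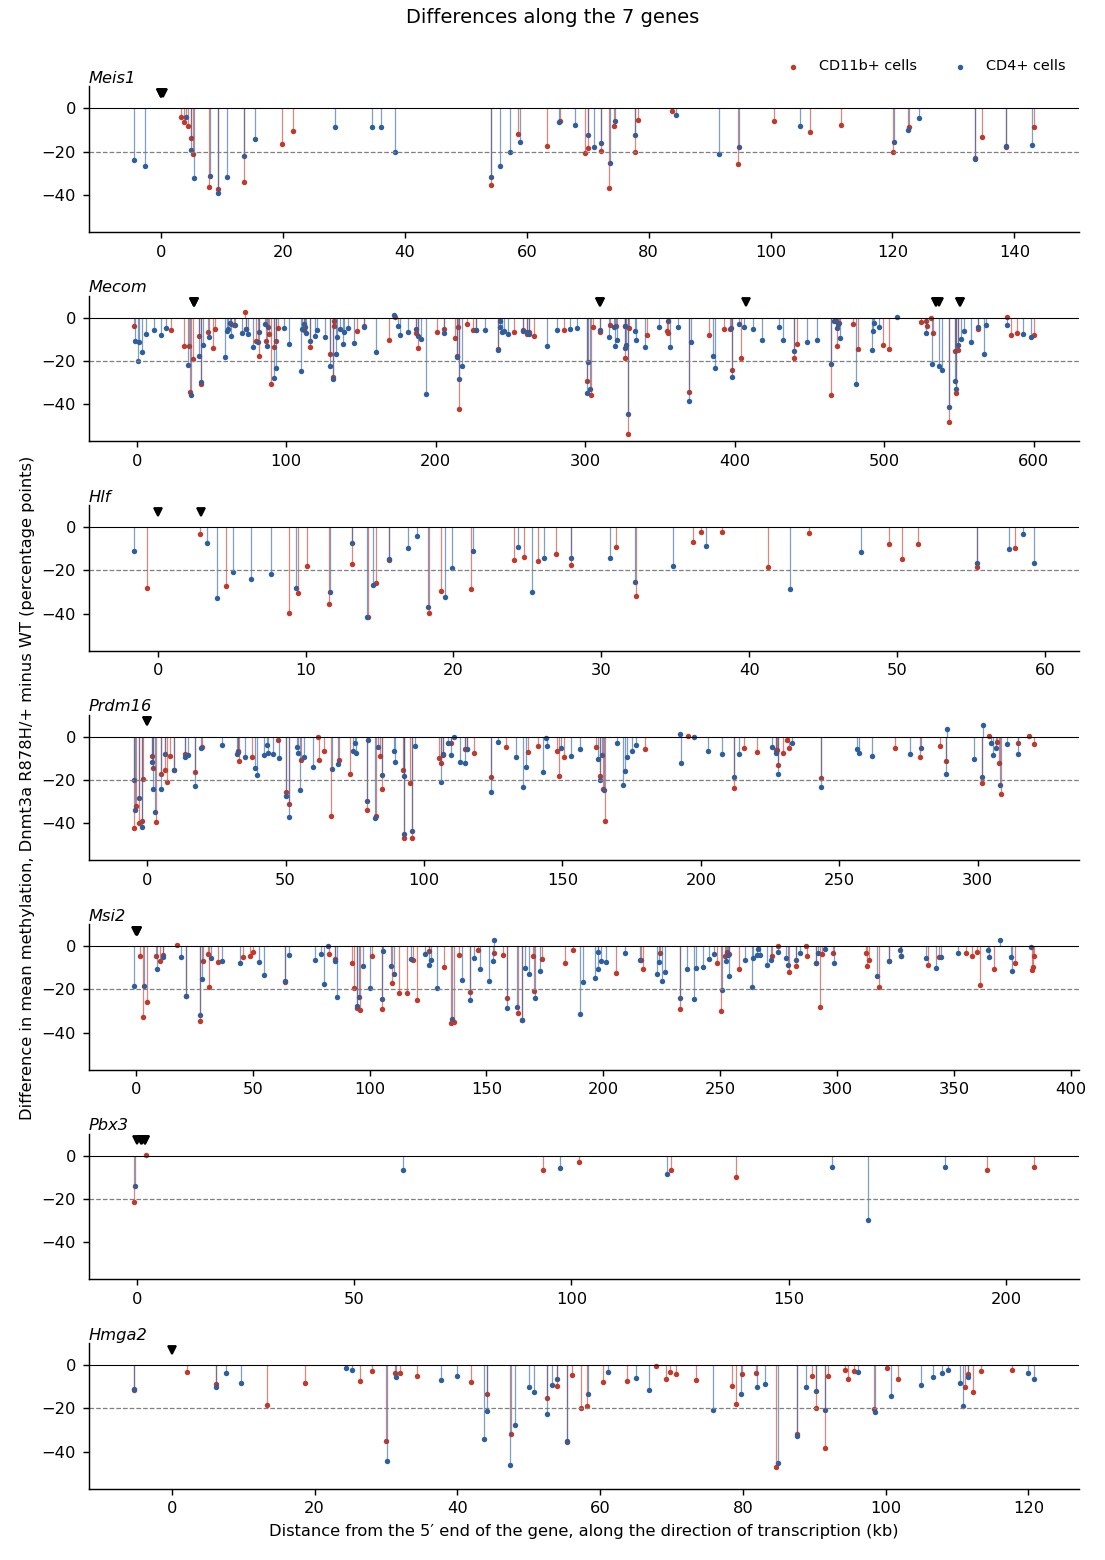
Difference between the authors' group means, Dnmt3a R878H/+ minus WT, in percentage points (y axis) for each listed region with more than 10 CpGs along each gene (x axis, kb from the gene's beginning in the direction of transcription), in CD11b+ (red) and CD4+ cells (blue). Triangles mark annotated starts of protein-coding transcripts, and the dashed line marks a loss of 20 points. Losses stand both near the starts and far inside the genes. Near its start *Hmga2* has none within 10 kb.

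Losses were more frequent near transcription starts and the median difference was larger there, although most losses were not there. The largest single losses lay beyond 5 kb, 53.5 points in CD11b+ and 46.1 in CD4+ cells, against 42.3 and 41.8 nearer. Within 5 kb of a start of the same gene, 14 of 37 regions in CD11b+ cells (37.8%) and 22 of 39 in CD4+ cells (56.4%) had a loss. Over all protein-coding genes the shares at that distance were 12.1% and 12.3%. The median losses were 15.2 and 21.3 points, against 7.81 and 8.10 over all genes. Farther away, 69 of 340 regions (20.3%) and 82 of 432 (19.0%) had a loss, against 7.47% and 6.32% over all genes, and the median losses were 8.31 and 9.07 points, against 6.38 and 6.56. The share thus stood above that of all genes at both distances. At 5 to 10 kb alone, 10 of 24 regions (41.7%) in each cell type had a loss, against 8.89% and 7.75% over all genes. The median losses there were 16.1 points in CD11b+ and 12.9 in CD4+ cells. In CD11b+ cells the share and the median were thus no smaller there than within 5 kb. Median WT methylation near the starts was 43.8% in CD11b+ cells and 66.2% in CD4+ cells, below the 83.0% and 86.3% of all genes at that distance, and median mutant methylation was 16.5% and 37.4%.

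**Figure D4:**
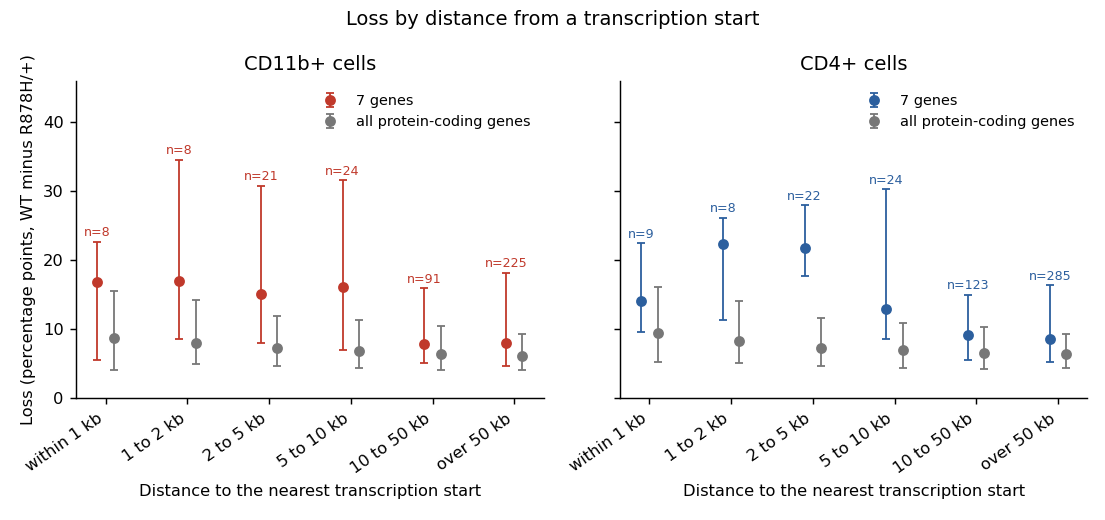
Loss in percentage points (y axis, WT minus Dnmt3a R878H/+) by distance from the nearest transcription start of the same gene (x axis) for the 7 genes (coloured) and all protein-coding genes (grey), in CD11b+ (left) and CD4+ cells (right). Points are medians over regions, bars are quartiles, and n is the number of regions of the 7 genes, at most 9 in each of the nearest bins. The coloured medians stand above the grey ones in every bin, by more within 10 kb of a start than beyond.

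By gene part, introns held most of the regions, 328 of 377 in CD11b+ cells and 423 of 471 in CD4+ cells, and 71 and 88 of the losses. Their shares with a loss were 21.6% and 20.8%. Intron here means the gene body outside exons and more than 1 kb from a start. It therefore takes in *Mecom* regions upstream of its protein-coding starts. Exonic regions had 5 of 25 and 7 of 21. Within 1 kb of a start 3 of 8 and 3 of 9 had a loss, and in the rest of the upstream flank 4 of 7 and 6 of 9. All 4 of those upstream CD11b+ losses and 4 of the 6 CD4+ ones were at *Prdm16*, and the other CD4+ ones were at *Meis1*. The downstream flanks had no loss in 9 regions in each cell type.

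The share of regions with a loss was highest at intermediate WT methylation. At 60 to 80% in WT, 38 of 63 regions (60.3%) in CD11b+ cells and 54 of 80 (67.5%) in CD4+ cells had a loss, against 24.3% and 24.5% of all listed regions with the same WT level. At 40 to 60% the shares were 72.7% (24 of 33) and 60.9% (14 of 23), against 35.7% and 30.7%. At 20 to 40% they were 28.6% (4 of 14) and 46.2% (6 of 13), against 12.1% and 8.49%. At 80 to 90% they were 20.2% and 21.9%, against 3.82% and 5.46%. Above 90% in WT, the most filled class, 0 of 167 CD11b+ regions and 5 of 238 CD4+ regions had a loss, against 0.232% and 0.360% of all. Below 20% no loss is possible by construction, and the 16 such regions of CD11b+ cells went from a median of 10.9% to 3.39%. At a like WT level between 20 and 90%, the share with a loss was thus above that of all listed regions in both cell types.

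The sequence of the regions differed little between those with a loss and the others. Median GC content was 48.3% against 46.3% in CD11b+ cells and 48.1% against 47.0% in CD4+ cells. Regions with a loss held a median of 1.98 CpGs per 100 bases in CD11b+ cells against 1.70, and 1.92 against 1.64 in CD4+ cells. They also counted more CpG cytosines, a median of 17.0 against 13.0 and 16.0 against 13.0. Their medians of the observed-to-expected CpG ratio were 0.360 against 0.330 and 0.356 against 0.314.

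Both cell types lost methylation in many of the same places. A CD11b+ and a CD4+ region of the 7 genes overlapped in 228 pairs, of which 70 (30.7%) had a loss in both, 16 in CD11b+ cells alone and 21 in CD4+ cells alone. Of 70629 such pairs genome-wide, 9.34% had a loss in both. Of the 83 CD11b+ losses, 64 (77.1%) overlapped a CD4+ loss, and of the 104 CD4+ losses, 63 (60.6%) overlapped a CD11b+ loss. Over the whole tables those shares were 47.6% and 37.6%. Across pairs the losses of the cell types had a Pearson correlation of 0.799, a description over 228 pairs that share genes, base composition and in part the same neighbouring region, and it was 0.703 over all pairs. In 190 pairs (83.3%) the losses differed by under 10 points, against 87.6% of all pairs, and the median size of the difference was 4.18 points, against 3.31. Loss in both was most frequent in *Hlf* (11 of 26 pairs) and *Hmga2* (8 of 21), then *Msi2* (15 of 42), *Meis1* (7 of 23), *Prdm16* (16 of 54) and *Mecom* (13 of 61). The single *Pbx3* pair had none.

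**Figure D5:**
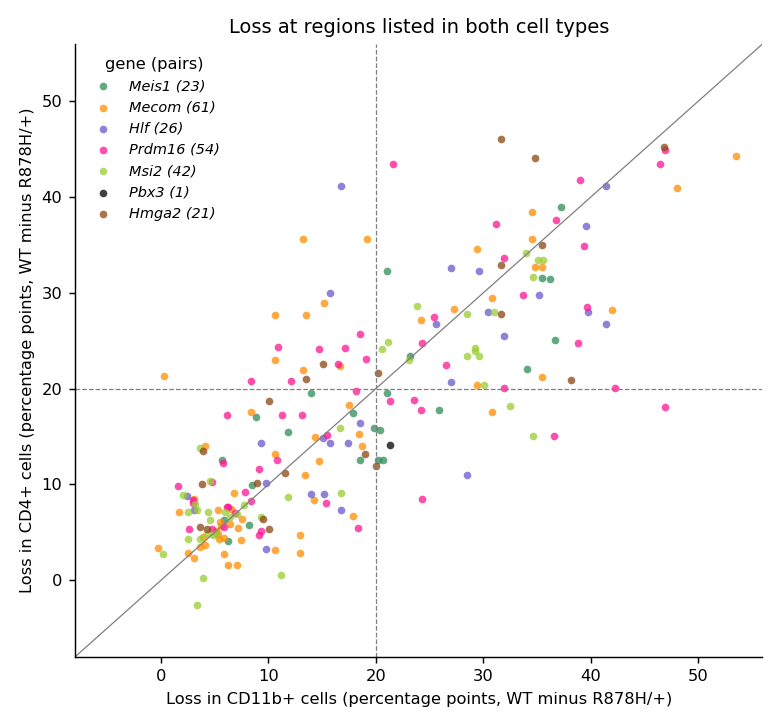
Loss in CD4+ cells (y axis) against loss in CD11b+ cells (x axis), in percentage points, for the 228 overlapping pairs of regions of the 7 genes. Each point is a pair coloured by gene, the solid line marks equal losses and dashed lines mark 20 points. Of these pairs, 70 stand past both dashed lines.

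The 5 pairs with the largest mean loss belonged to 3 genes. The first was the *Mecom* intron 1 stretch, with losses of 53.5 points in CD11b+ and 44.3 in CD4+ cells. The *Hmga2* intron 3 stretch followed with 46.8 and 45.2 points, its CD4+ region going from 87.4% to 42.2%. The regions that share the *Prdm16* intron 1 stretch printed above lost 46.9 and 44.9 points. A neighbouring *Prdm16* stretch (chr4:154540958-154541500) went from 70.9% to 24.5% in CD11b+ cells and from 75.9% to 32.4% in CD4+ cells. The fifth lay in *Mecom* intron 2 (chr3:30004609-30005076), 6363 bases from an EVI1-side start, and went from 76.4% to 28.4% and from 77.4% to 36.4%. In each of them both cell types started from over 70% in WT.

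Of the pairs whose losses differed most, 2 are described. Their region borders differed between the tables, so they compare stretches that only partly coincide. In *Prdm16* intron 1 a CD4+ region at chr4:154544020-154544064 lost 18.1 points, from 96.4% to 78.3%, inside the CD11b+ region that lost 46.9. Near the most upstream *Mecom* starts a CD11b+ region (chr3:30512644-30513758) went from 18.1% to 4.88%, while the CD4+ region that shares 141 bases with it went from 62.3% to 26.7%.

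WT methylation itself differed a little between the cell types. In 145 of 228 pairs the WT mean was higher in CD4+ cells, with a median difference of 1.83 points. It was over 20 points higher in CD4+ cells in 15 pairs and over 20 points higher in CD11b+ cells in 8. *Hlf* showed the clearest shift, CD4+ cells being higher in 21 of 26 pairs, with a median difference of 7.38 points. As a check of the labels, WT methylation at markers of each cell type was set side by side. These marker pairs were not limited to regions with more than 10 CpGs. At 10 myeloid genes such as *Itgam* and *Csf1r*, the median over 93 overlapping pairs was 76.1% in CD11b+ and 87.9% in CD4+ cells, and CD11b+ cells were lower in 62. At 10 T cell genes such as *Cd4* and *Cd3e*, the medians over 82 pairs were 78.0% and 67.8%, and CD4+ cells were lower in 54. The markers followed the labels. Methylation is a mean over all cells of a fraction, so a change in every cell and a changed mix of cells cannot be told apart.

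The values near the limit of a loss show how fine the line is. In CD11b+ cells the last regions inside it lost 20.22 points in *Meis1* and 20.19 in *Hmga2*, and the first outside lost 19.96 in *Hmga2* and 19.84 in *Meis1*. In CD4+ cells they were 20.09 in *Prdm16* and 20.05 in *Meis1*, then a *Mecom* region at the limit itself, with 87.0% and 67.0%, and 19.79 in *Prdm16*.

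Other stem cell genes were also read. A first list held 17 paralogs and partners of the 7, such as the HOX partners and the other PAR bZIP genes. Of these, 11 had a loss in CD11b+ and 12 in CD4+ cells. Over all protein-coding genes with a region 32.8% and 36.4% had any, and over all listed regions 7.74% and 6.89% had one. At these 17 genes a loss was seen in 17 of 141 regions (12.1%) and 31 of 208 (14.9%). The most were in *Hoxa9*, whose protein binds DNA together with MEIS1, in CD11b+ cells (4 of 8 regions) and in *Prdm1* in CD4+ cells (6 of 29). *Msi1*, the paralog of *Msi2* used mainly in the nervous system, and *Lin28b*, which acts upstream of *Hmga2*, had none in 6 and 8 regions in CD11b+ cells and none in 8 and 12 in CD4+ cells. Both were named after their values had been seen. Among 28 further regulators of blood stem cells, 19 and 24 had a loss, and 122 of 455 regions (26.8%) and 131 of 582 (22.5%) had one. The gene with the most was *Etv6*, with 27 of 102 and 26 of 105. The shares of these regulators resemble those of the 7 genes, 22.0% and 22.1%. The shares were 24.2% and 19.0% at the Runx genes and *Cbfb* and 26.2% and 23.9% at 4 ETS factors. They were higher, 39.1% and 44.8%, at *Gata2*, *Gata3* and *Tal1*, the last over 23 and 29 regions. In these sets the most losses were in *Runx1* (14 of 55, CD11b+) and *Runx2* (16 of 76, CD4+), in *Etv6*, and in *Gata2* (5 of 7 and 9 of 14). *Runx1*, *Erg*, *Fli1*, *Etv6*, *Gata2* and *Tal1* are counted both among the regulators and in these sets.

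Likeness was taken as the distance, in percentage points, over the 4 CpG-weighted means of a gene, among 2973 other genes with at least 10 regions in each cell type. The 4 means of *Mecom* were nearest to those of *Kit* (distance 0.547), *Piezo1* (0.672) and *Ctbp2* (0.693). *Msi2* was nearest to *Adcy9* (1.08), *B4galt5* (1.50) and *Elmo1* (1.60), *Prdm16* to *Ddc* (1.40), *Casz1* (1.64) and *Aff1* (1.71), and *Hmga2* to *Rtn4rl1* (1.65), *Lcp1* (2.05) and *Jam3* (2.38). *Meis1* and *Hlf*, with lower mutant levels, had no gene so near, the closest being *Dapp1* (3.53), *Cxxc5* (4.53) and *Ern1* (5.19) for *Meis1* and *Cyth3* (3.65), *Srebf2* (4.59) and *Runx3* (4.72) for *Hlf*. *Pbx3* had too few regions.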

How the data were processed

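The series holds 18 WGBS entries of splenic CD11b+ and CD4+ cells, from 4 mice of each genotype per cell type. A pair of entries with the same replicate number was counted as 1 mouse. Reads had been aligned by the authors with BISCUIT (build mm10), and genotypes compared with metilene. Their versions, the metilene settings and a coverage minimum are not given in the sources used here. The deposited tables, 1 per cell type and without a header, give for each region its position, each group's mean methylation in percent and the number of CpGs. They also hold the authors' difference, p-values and q-values, which were not used. In regions with 10 CpGs the means were multiples of 1/40 of a percentage point, within 0.021 of a step, in 100% of regions, as equally weighted means of 4 mice would be. Regions began and ended at CpG cytosines of mm10 once starts were counted from 1. The CpG number counts cytosines of either strand, since it exceeded the number of CG dinucleotides in 89.4% of CD11b+ and 94.3% of CD4+ regions.

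The difference was recomputed from the group means, and a loss or gain needed more than 10 CpGs and over 20 percentage points, the size limits of the study without its q-value. Genes, starts, exons and introns came from GENCODE M21, and a promoter was the 1 kb on either side of a start. Weighted means were weighted by the CpG number. Of each gene and cell type, the regions with the largest loss, the largest gain or smallest loss and nearest a start were named, then the 5 overlapping pairs with the largest mean loss, those whose losses differ most, the 3 nearest genes by likeness and 2 regions to either side of the limit. Overlap meant 1 shared base. The 7 genes, the gene lists and these rules were chosen with earlier results of these data known. The alternatives were limits of 10 and 30 points, more than 20 CpGs, all listed regions, weighting by CpGs, other flanks and distances, a reciprocal overlap of 50% and, added after seeing the data, more than 10 CG dinucleotides and regions that touch no other protein-coding gene. The starts were grouped and the rows of consecutive losses found after the values were seen. A region of 1 gene with its sequence, and 1 gene of the lists, are not reported here. The code was tested on simulated tables. Software was pandas 2.3.3 and numpy 2.4.6 under python 3.11.15, with pysam 0.24.0 for sequence, scipy 1.17.1 for intervals and matplotlib 3.10.9 for plots.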

Additional observations from a re-analysis of the deposited data

How the results depend on the processing

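Without values of single mice, no mouse could be left out. No paired analysis was possible because the tables give only group means. The direction, lower in the mutant, held under every alternative run. A limit of 10 points gave 173 losses in CD11b+ cells, 228 in CD4+ cells and 130 pairs with a loss in both, and a limit of 30 points gave 46, 35 and 27. All listed regions, whatever their CpG number, gave 144, 168 and 122, and lowered the share of CD4+ regions below WT to 96.7%. With more than 20 CpGs there were 26 and 33 losses and 17 such pairs, and 100% of CD4+ regions were lower. The median differences with more than 20 CpGs were -27.3 points in CD11b+ and -22.2 in CD4+ cells, -31.4 in CD11b+ cells near a start, and -25.4 in CD11b+ and -17.4 in CD4+ cells away from one. Weighted by CpGs the medians were -10.6 and -10.7. More than 10 CG dinucleotides, an alternative added after seeing the data, left 65 CD4+ losses, and a reciprocal overlap of 50% left 44 pairs. The share with a loss at the 7 genes stood above that of all listed regions under both limits, with all listed regions, with more than 20 CpGs and with more than 10 CG dinucleotides (31.9% against 11.9% in CD11b+ and 38.7% against 11.7% in CD4+ cells). It was 12.2% against 2.03% in CD11b+ and 7.43% against 1.69% in CD4+ cells at 30 points, and 60.5% against 21.1% and 55.0% against 17.0% with more than 20 CpGs. Of the other values for both cell types and the pairs, 135 stayed within their 95% interval over regions or, for counts, within 1.5 times. That interval is over regions of the same genes and not over mice. The 135 include the counts of gains, which were 0 under every alternative, and a stricter limit or fewer regions cannot raise a count of 0. Of the counts for single genes, 62 moved by more than 1.5 times and 50 did not.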
